A study of Mus musculus with 55 samples.

Results

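The decline of transcription that follows the post-mitotic burst was examined in CTCF-AID mouse embryonic stem (ES) cells that received no IAA. These cells derive from the E14Tg2a line (strain 129/Ola), and their CTCF carries the auxin-inducible degron tag, so that the protein is degraded when auxin (IAA) is added. All groups described here were synchronised with 10 µM RO-3306, an inhibitor of CDK1, for 4 h and then with 50 ng/ml nocodazole, which blocks the mitotic spindle, for 4 h, followed by shake-off and release, except asynchronous cells, which were not synchronised. Pre-mRNA was measured by RNA-seq at 50 and 60 min after release, called burst here, and at 90 and 120 min, called late. Burst comprised replicates 1 and 3 at 50 min and replicates 1 and 2 at 60 min, and late comprised replicates 1 and 3 at 90 min and replicates 1 and 2 at 120 min. These 8 libraries were chosen by their labels from the 55 of the series, and 10 other libraries of the same arm (mitotic, 20 min, 40 min and asynchronous) gave the levels before the burst and in cycling cells. The same stages of CTCF-AID cells given 0.5 mM IAA (8 libraries) and those of CCNA-GFP cells, which are E14Tg2a cells with a cyclin A reporter of the cell cycle (7 libraries), served for comparison. The CTCF-AID cells are 1 line with no untagged control in these comparisons, and the cells were cultured in serum and LIF. The study's methods describe the replicates as independent. For late against burst, p-values measure the spread of libraries within each group after allowing for the replicate. That spread includes differences between the times of a group, and replicate 1 is in each group at both times.

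During mitosis chromatin is compacted and most genes are transcribed little. As cells leave mitosis RNA polymerase II returns to promoters, and in several cell types nascent transcription rises above its interphase level for a short time before it settles. Because introns are removed within minutes, pre-mRNA tracks current transcription more closely than mature mRNA does. The deposited tables give pre-mRNA levels in TPM, here for 10237 genes. Levels in single libraries are given as TPM, always in the order 50 min replicates 1 and 3 and 60 min replicates 1 and 2 for the burst, and 90 min replicates 1 and 3 and 120 min replicates 1 and 2 for late. Differences are late minus burst on the log2(TPM + 1) scale, which understates the change of low genes, and they come from a limma fit with the replicate as a block (called at a Benjamini-Hochberg adjusted p of 0.05).

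Most genes fell after the burst. Pre-mRNA of 5470 of the 10237 genes was lower at 90 and 120 min than at 50 and 60 min (53.4%) and that of 1086 was higher (10.6%), while the median difference of all genes was −0.23. Among the genes called lower the median size of the difference was 0.44, and 194 genes fell by 1 or more. The genes called higher changed less, with a median size of 0.29, and 8 of them rose by 1 or more. Over all genes 52.6% were lower in each of the 4 pairs of libraries of the same replicate (90 against 50 min in replicates 1 and 3, 120 against 60 min in replicates 1 and 2), and 12.5% were higher in each. Of the genes called lower, 5049 fell in all 4. Without replicate 1, which leaves 2 libraries in each group, 2581 genes were called lower and 567 higher. Late libraries lay entirely below burst libraries for 3250 genes (31.7%) and entirely above them for 656 (6.41%).

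The sum of TPM over all genes was 40150, 43370, 39173 and 38416 in the burst libraries and 29193, 38934, 28422 and 30184 in the late libraries. All late libraries but replicate 3 at 90 min were well below every burst library, and that library lay within the burst range. Thus the mean fell by 21.3%, from 40278 ± 2181 to 31683 ± 4887 (SD, n = 4 libraries each, with replicate 1 counted at both times). An exact two-sided permutation test over the libraries gave p = 0.0571, where the smallest value it allows is 0.0286. That test ignores the pairing of libraries by replicate. With divisions made within replicates only, an alternative chosen after seeing the data, the exact p was 0.0833, the smallest that 24 divisions allow. Within replicates the sum fell by 27.3% (replicate 1) and 10.2% (replicate 3) from 50 to 90 min, and by 27.4% (replicate 1) and 21.4% (replicate 2) from 60 to 120 min. Since TPM are shares of a library, and since these are bulk samples, fewer transcribing cells and less pre-mRNA per cell cannot be told apart. When all libraries were set to the same sum over the 10237 genes, the median difference moved by 0.23 to 0.00, with 3155 genes lower (30.8%) and 3243 higher (31.7%). Of the genes called lower, 3155 kept the call on this scale. Because the scale raises late relative to burst libraries, that genes called higher keep their call on it follows from the scaling. A difference above −0.23 therefore describes a gene that fell less than the median gene.

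**Figure D1:**
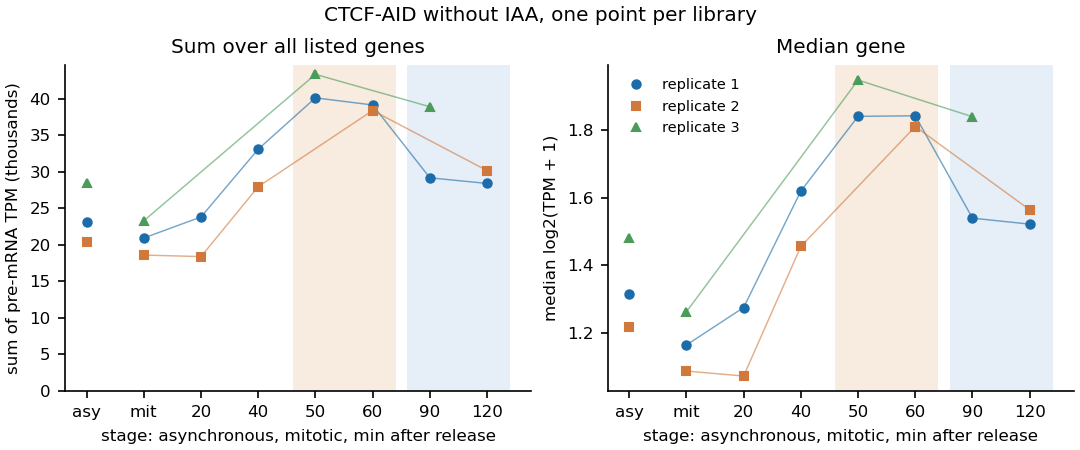
Sum of pre-mRNA TPM over the 10237 genes (left) and median log2(TPM + 1) (right) in each of the 18 libraries without IAA, by stage (asy, asynchronous; mit, mitotic; then min after release) and replicate, with lines joining libraries of a replicate and shading over the burst and late stages. The sum stands between 38416 and 43370 in the burst libraries and at 28422 to 38934 in the late libraries.

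By count of genes called, the decline fell between 60 and 90 min. The steps differ in length, and a step without calls is not thereby shown to be without change. In a fit of all 18 libraries without IAA, 4345 genes fell (42.4%) and 288 rose (2.81%) from 60 to 90 min, with a median difference of −0.24. At the same sum these counts were 1595 and 1695, and with no replicate block 714 and 67. From 50 to 60 min limma called no gene, although 1749 had an unadjusted p under 0.05 and the median difference was 0.06. With only genes of a mean of at least 1 TPM, 2 were called higher. Likewise no gene was called from 90 to 120 min, where 452 had an unadjusted p under 0.05 and the median was −0.02. Leaving out a replicate brought some calls in both steps, as given in the closing section. Libraries at 50 and 90 min share replicates 1 and 3 and those at 60 and 120 min share replicates 1 and 2, so that only replicate 1 spans all 4 times. Without it 357 genes were called lower and 32 higher from 60 to 90 min, and without replicate 2 the counts were 2175 and 71. Single genes differed in timing. In replicate 1 at 50, 60 and 90 min Insig1 stood at 17.1, 9.65 and 3.24 TPM and Mir20a at 10.7, 4.72 and 0.701 TPM. Both had thus fallen in part by 60 min, whereas Cdk2 had not, at 6.11, 6.57 and 2.85 TPM.

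As deposited, late levels were still above those of mitosis and of cycling cells for most genes. Against mitotic cells 7741 genes were higher at 90 and 120 min (75.6%) and 367 lower (3.59%), with a median difference of 0.37, and the same fit gave 8590 higher (83.9%), 386 lower (3.77%) and a median of 0.62 for the burst. Relative to asynchronous cells 6093 genes were higher (59.5%) and 814 lower (7.95%) in the late libraries, with a median of 0.26, as against 7642 higher (74.7%), 903 lower (8.82%) and a median of 0.51 in the burst. At the same sum the excess of higher genes was smaller, with 3573 higher and 2722 lower against mitosis and 3076 higher and 2869 lower against asynchronous cells in the late libraries, and 4305 and 3399, and 4052 and 3581, in the burst. With no replicate block 4030 genes were above and 403 below asynchronous cells late, and 573 were below them in the burst. Below mitosis there were then 187 late and 211 in the burst. These comparisons share libraries with each other. Genes that define ES cells were expressed throughout: 7 of 8 markers are listed, Sox2 being the one not listed, and their summed level was 87.8 to 113 TPM in the burst and 71.9 to 121 TPM late, with 5 called lower and 1 higher. None of 7 markers of primitive endoderm is listed. The summed level of the 4 listed trophoblast markers (of 7) was 6.18 to 16 TPM in the burst and 3.38 to 7.41 TPM late, and that of the 3 listed fibroblast markers (of 8) was 4.88 to 9.96 and 1.76 to 5.98 TPM, with all 7 of these genes called lower. Of 7 markers of the 2-cell-like state 3 are listed, at a summed 0.828 to 1.95 TPM and 0.783 to 2.97 TPM, and none was called. The 2 listed mesoderm markers (of 5) summed to 0.922 to 3.75 and 0.456 to 2.80 TPM, with 1 called lower, and the 2 listed neuroectoderm markers (of 5) to 4.80 to 10.8 and 2.01 to 6.46 TPM, both called lower. These calls of markers are read beside 53.4% of all genes called lower and 10.6% called higher. The part of other cell types in the results was not tested.

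The direction of change followed the length of the gene. Medians were lowest in short genes and above 0 in the longest. The median difference was −0.34 for the 1106 genes under 5 kb, −0.31 for the 3603 genes of 5 to 20 kb, −0.26 for the 2991 of 20 to 50 kb, −0.12 for the 1462 of 50 to 100 kb and 0.12 for the 1047 over 100 kb. Among genes under 5 kb 65.2% were called lower and 4.16% higher, against 11.1% lower and 38.9% higher among genes over 100 kb. At the same sum these shares were 36.6% and 14.5% under 5 kb, and 2.96% and 74.0% over 100 kb. Genes over 100 kb thus supplied 407 of the 1086 genes called higher. The annotated span of the genes called lower had a median of 17.0 kb, that of the genes called higher 64.2 kb and that of genes not called 29.5 kb.

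Genes over 100 kb had the highest median in each pair of libraries. Genes under 5 kb had the lowest in 3 of the 4 pairs, the exception being replicate 1 from 60 to 120 min, where genes of 5 to 20 kb were lowest at −0.36. For genes over 100 kb the median was 0.07 and 0.33 from 50 to 90 min in replicates 1 and 3, and 0.01 and 0.08 from 60 to 120 min in replicates 1 and 2, while for genes under 5 kb the corresponding values were −0.40, −0.30, −0.34 and −0.32. The size of the rise of the longest genes rested on single replicates and times, as the median over 100 kb was 0.05 without replicate 3 or without its 50 or 90 min library, 0.20 without replicate 1, 0.20 with 50 and 90 min alone and 0.04 with 60 and 120 min alone, and it was 0.20 with a pseudocount of 0.1. For genes of 50 to 100 kb the median was −0.03 without replicate 1, −0.19 without replicate 3 or either of its libraries, −0.02 with 50 and 90 min alone and −0.22 with 60 and 120 min alone. Genes over 100 kb had a positive median in each of 4 equal groups of mean level, between 0.10 and 0.16. With all libraries at the same sum the medians ran from −0.12 under 5 kb to 0.31 over 100 kb, and those of 50 to 100 kb turned positive at 0.11. In the comparison with mitosis, the burst had raised short genes most, by a median of 0.90 under 5 kb and 0.13 over 100 kb. Late libraries, by contrast, stood 0.55 above mitosis under 5 kb and 0.26 over 100 kb.

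**Figure D2:**
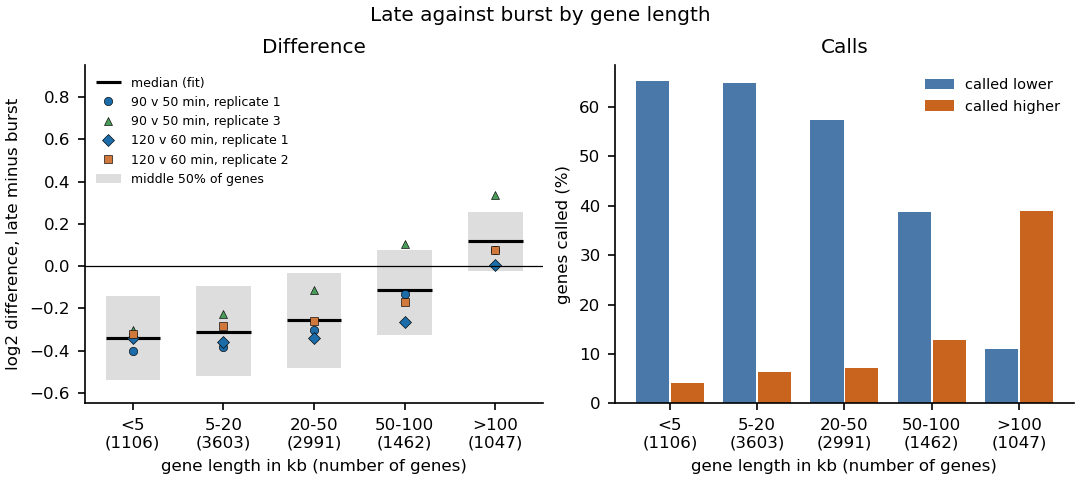
Late minus burst by gene length, on the log2(TPM + 1) scale: median of the fit, middle 50% of genes and the median of each within-replicate pair (left), and the percentage of genes called lower and higher (right). Medians go from −0.34 in genes under 5 kb to 0.12 in genes over 100 kb.

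The 10 longest genes whose mean over the 8 libraries reached 2 TPM are given as examples, since the rule takes late levels into account. For Exoc4, Btbd9 and Pvt1, all called higher, the burst libraries were all below 2 TPM, so that their late levels brought them in. Of the other 7 genes 4 were called higher. Agap1, an Arf GTPase-activating protein of 443 kb (chr1:89454806-89897617), stood at 2.24, 2.29, 2.47 and 2.58 TPM in the burst and at 3.11, 5.24, 3.81 and 5.03 TPM late, a difference of 0.62 ± 0.10 (SE, adjusted p = 0.000155). Late libraries were all above burst libraries. Stag1, a cohesin subunit of 362 kb, rose by 0.35. Dst, Arl15 and Gse1 were not called, at 0.17, 0.13 and −0.12. At the same sum Dst and Arl15 were called higher as well, at 0.45 and 0.37, and Gse1 turned to 0.13 without a call.

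The genes that fell most after the burst were mostly short and belonged to several pathways. The 16 with the largest decline among genes of at least 2 TPM that fell in all 4 pairs lost between 1.53 and 1.99 on the log2 scale. All 16 were also called lower with libraries at the same sum. This follows largely from their selection as the largest declines, since the scale moved the median gene by far less. Mir20a, Utp14b, Dnajb14, Syf2, Gadd45g and Pkn3 had mean late levels below 2 TPM and met the level filter through the burst. Insig1 (chr5:28071363-28078662), which holds the sterol-sensing SREBP complex in the endoplasmic reticulum, stood at 17.1, 14.8, 9.65 and 11.5 TPM in the burst and at 3.24, 3.00, 3.08 and 3.16 TPM late. Its late libraries were nearly equal and far below every burst library, with a difference of −1.76 ± 0.14 (SE, adjusted p = 1.27e-06). In mitotic cells Insig1 had 2.56 to 5.35 TPM, and in asynchronous cells 5.38 to 6.97 TPM, above all 4 late libraries.

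Polg2 (chr11:106768253-106779537), the accessory subunit of the mitochondrial DNA polymerase, fell from 12.5, 19.4, 8.10 and 12.5 TPM to 2.50, 4.11, 2.35 and 2.91 TPM (−1.79 ± 0.12). Dnajb14, a co-chaperone of the endoplasmic reticulum, was at 5.19, 7.75, 3.46 and 5.48 TPM in the burst and at 0.592, 1.42, 0.456 and 0.559 TPM late (−1.87 ± 0.10). For both genes the late libraries lay below all burst libraries, and 90 min replicate 3 was the highest of them. Ddit3, which encodes the stress-induced factor CHOP, decreased from 15, 17.7, 9 and 13 TPM to 2.34, 3.84, 3.19 and 4.11 TPM (−1.73 ± 0.14), again without overlap. Gadd45g, a stress-response gene that restrains growth, decreased by 1.66, Syf2, a spliceosome component, by 1.67, and Ing1, a reader of H3K4 methylation, by 1.59. Scd2, a desaturase that makes monounsaturated fatty acids, went from 15.7, 15.6, 11.6 and 15.4 TPM to 4.03, 5.4, 3.19 and 5.14 TPM (−1.53 ± 0.11), which is below its levels of 6.32 to 7.50 TPM in mitotic cells.

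Several of these genes overlap another gene, and with RSEM the reads of overlapping isoforms are divided by estimation, so their values carry that uncertainty. Utp14b, a testis-enriched copy of a ribosome biogenesis factor, lies in Acsl3 on the same strand and fell by 1.95, whereas Acsl3 differed by −0.30, which at the same sum was −0.03 and not called. Snhg15, a noncoding RNA that hosts a small nucleolar RNA, was at 23.7, 21.9, 20.4 and 23.0 TPM in the burst but spread from 2.85 to 15.4 TPM late (−1.57 ± 0.30, adjusted p = 0.000509). Its late libraries still lay below all burst libraries, and its mitotic libraries ranged from 1.76 to 18 TPM. With robust eBayes Snhg15 was not called.

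The largest decline of all was that of Mir20a (chr14:115044157-115044263), a 107-base miRNA gene of the cluster in Mir17hg, whose products restrain cell cycle inhibitors. It stood at 10.7, 12.3, 4.72 and 6.31 TPM in the burst and at 0.701, 2.26, 1.12 and 1.23 TPM late (−1.99 ± 0.17, adjusted p = 1.97e-06), with no overlap. Its host transcript Mir17hg, on the same strand, had 25.4, 20.1, 27.8 and 26.3 TPM and then 22.7, 22.3, 21.7 and 22.8 TPM, a difference of −0.14 that was not called and that turned to 0.20, called higher, at the same sum. The host and the miRNA gene inside it thus differed in size of change, and the depth behind so short a feature is unknown. In the opposite direction went Mir34a (chr4:150068454-150068555), a miRNA gene that is a target of p53, at 10.1, 7.46, 15.3 and 10.2 TPM in the burst and 20.3, 29.2, 26.0 and 29.8 TPM late (1.24 ± 0.17, adjusted p = 3.61e-05). All of its late libraries exceeded all of its burst libraries. Mir34a overlaps Gm37795 on the same strand and is also a very short feature, so its values carry the same uncertainty. Of 12 miRNA genes listed 5 were called lower (41.7%) and 3 higher, beside 53.4% and 10.6% of all genes. At the same sum 33.3% of these 12 were higher, beside 31.7% of all genes. Their share called lower was then below the 30.8% of all genes. The mature products of the pair with the largest differences are shown from RefSeq (GRCm38.p6) to identify them, 5′ to 3′ with the seed (bases 2 to 8) in capitals, and their seeds are not the same.
mmu-miR-20a-5p: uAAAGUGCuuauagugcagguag
mmu-miR-34a-5p: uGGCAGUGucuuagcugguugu

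**Figure D3:**
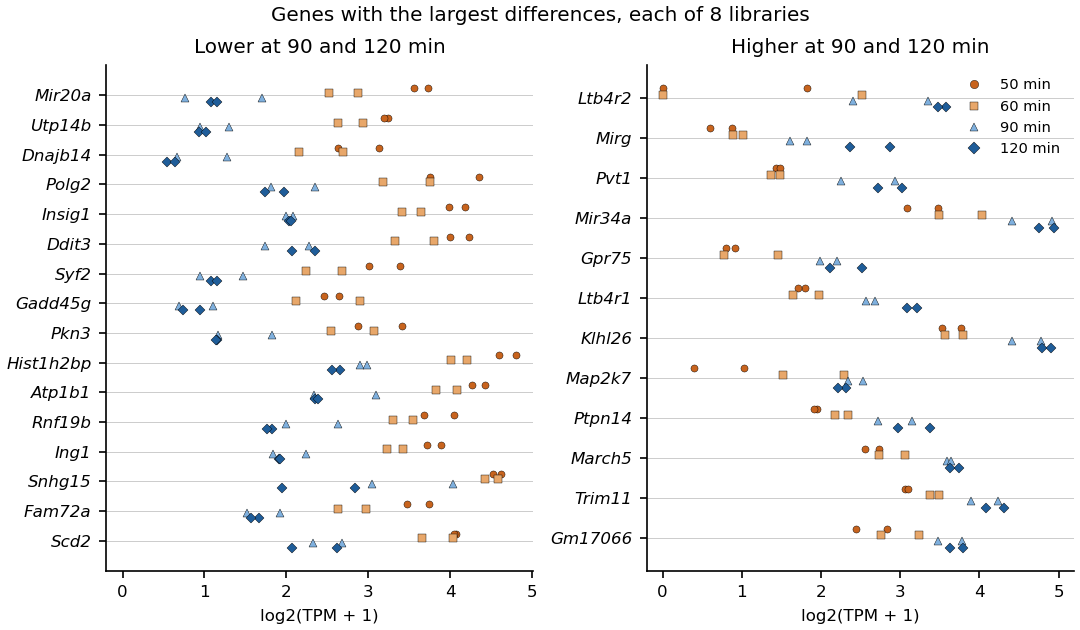
Log2(TPM + 1) in each of the 8 libraries for the 16 genes with the largest decline (left) and the 12 with the largest rise (right) by the naming rule, with symbols for time after release. Among the risers the late libraries overlap the burst libraries only in Ltb4r2 and Map2k7.

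The 12 genes with the largest rise gained between 0.85 and 2.12. Mean burst levels were below 2 TPM for Mirg (0.81), Gpr75 (1.02), Pvt1 (1.72), Map2k7 (1.78) and Ltb4r2 (1.82). Their late levels brought them under the naming rule, so they are given as examples. Pvt1 (chr15:62037986-62378096), a long noncoding RNA next to Myc, stood at 1.71, 1.79, 1.80 and 1.58 TPM in the burst and at 3.75, 6.66, 5.57 and 7.13 TPM late (1.29 ± 0.12, adjusted p = 3.5e-06). In mitotic cells it had 1.91 to 3.34 TPM, above all burst libraries, and in asynchronous cells 3.00 to 4.06 TPM, below all late libraries except 90 min replicate 1. Its neighbour Myc changed in the other direction, by −0.36 ± 0.11 (adjusted p = 0.0123), with overlapping libraries, and at the same sum it was at −0.08 and not called. Without replicate 2, or without its 60 or 120 min library, Myc was at −0.20 and not called, and the call was also lost with no replicate block, without replicate 1 (−0.49) or its 50 min library (−0.35), and with 50 and 90 min alone (−0.22).

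Klhl26 (chr8:70450219-70476968), a member of the Kelch family of ubiquitin ligase adaptors, rose from 10.5, 12.6, 12.9 and 10.8 TPM to 20.3, 26.3, 26.7 and 29.0 TPM (1.06 ± 0.11). It had 2.85 to 4.66 TPM in mitosis and 3.76 to 6.19 TPM in asynchronous cells, so that late libraries were the highest of the series of stages. Mirg, a noncoding RNA of the imprinted Dlk1-Dio3 domain that hosts many miRNAs, went from 0.830, 0.520, 0.855 and 1.02 TPM to 2.04, 2.55, 4.18 and 6.29 TPM (1.32 ± 0.15). In the same domain Rian rose by 0.70 and Meg3 fell by 0.41, and at the same sum Meg3 was at −0.08 and not called. Ptpn14, a phosphatase that binds YAP, rose by 0.96, March5, a ubiquitin ligase of the mitochondrial outer membrane that lies opposite Cpeb3, by 0.88, and Trim11, another ubiquitin ligase, by 0.87.

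The adjacent leukotriene B4 receptor genes Ltb4r2 and Ltb4r1 (chr14:55761428-55768494) also rose. Ltb4r1 stood at 2.47, 2.26, 2.92 and 2.14 TPM and then at 5.43, 4.95, 8.26 and 7.49 TPM (1.11 ± 0.12). Ltb4r2 is listed at 0, 2.55, 4.72 and 0 TPM in the burst and at 4.29, 9.19, 10.9 and 10.2 TPM late, so that the groups overlap and its fitted difference of 2.12 ± 0.44 (adjusted p = 0.00101) rests on burst libraries listed at 0. Gpr75, which lies within Asb3, rose by 1.22, while Asb3 differed by 0.18. Map2k7, a kinase of the JNK pathway, also had overlapping libraries. It stood at 1.04, 0.312, 3.89 and 1.87 TPM in the burst and 3.63 to 4.79 TPM late (1.04 ± 0.26, adjusted p = 0.00303). With robust eBayes neither Ltb4r2 nor Map2k7 was called.

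By pathway, the genes of cholesterol synthesis fell together. All 27 measured of 28 were called lower, beside 53.4% of all genes, with a median of −0.75 beside −0.23 for all genes. With libraries at the same sum 23 remained lower, beside 30.8% of all genes, and their median was −0.51. These enzymes turn acetyl-CoA into cholesterol, and their genes are activated by SREBP when sterols are low. Idi1, an isomerase, fell by 1.26 and Msmo1, a sterol demethylase, by 1.11. The regulators Srebf2 and Srebf1 fell by 0.60 and 0.39, the latter being at −0.08 and not called at the same sum, and Scap, the escort of SREBP, by 0.26, which was the smallest change of the list and was at 0.02 and not called at the same sum. The list had a median of 1.02 above mitosis in the burst, 0.17 late, and −0.04 relative to asynchronous cells late, whereas all genes were at 0.62, 0.37 and 0.26.

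Genes of G2 and mitosis also declined, 34 of 39 being called lower and none higher (median −0.56, and 28 lower and 3 higher at the same sum with a median of −0.29). For all genes the shares were 53.4% lower and 10.6% higher, and 30.8% and 31.7% at the same sum. Cdk1 (chr10:69335146-69352938), the kinase that drives mitosis, stood at 13.3, 14.4, 10.8 and 8.21 TPM in the burst and 5.74, 7.61, 5 and 4.39 TPM late (−0.92 ± 0.10), below its burst libraries throughout. It had 6.42 to 9.16 TPM in mitosis, and its late level was 0.39 below that (adjusted p = 0.00084). Cenpf, a kinetochore protein, fell by 1.05 (7.61, 8.66, 5.31 and 4.26 to 2.32, 3.29, 2.53 and 1.96 TPM), Aurka, a spindle kinase, by 0.91 and Ccnb1, cyclin B1, by 0.89. Aurkb, the kinase of the chromosomal passenger complex, was at 0.18 and not called, but was called higher at the same sum, at 0.50. The list stood 0.66 above mitosis in the burst and 0.10 late.

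Sequences upstream of these genes were inspected for CCAAT, the box bound by NF-Y, because promoters of cholesterol and G2/M genes are known for it. RefSeq promoters (250 bases before to 50 after the start, GRCm38.p6) were matched for 8199 of the 10237 genes. CCAAT on either strand occurs in 40.0% of all of these, in 43.4% of the promoters of genes called lower and in 30.6% of those of genes called higher. Among the lists it is found in 17 of 20 promoters of cholesterol synthesis (85.0%), the exceptions being Acat2, Dhcr7 and Scap, in 25 of 31 of G2/M (80.6%), in 15 of 21 of replication licensing (71.4%) and in 19 of 58 of cytosolic ribosomal proteins (32.8%). In lists that also declined by more than the median gene the share was not always high, at 8 of 20 for glycolysis (40.0%) and 9 of 24 for pause release and elongation (37.5%). Nor was it always low in lists with medians near that of all genes. There it ran from 6 of 19 for pluripotency factors (31.6%) to 10 of 18 for targets of actin, SRF and YAP (55.6%). For the lamina, envelope and pore it was 16 of 32 (50.0%). For genes of 20 to 50 kb alone the shares are 44.7% for those called lower and 29.3% for those called higher. For the other motifs searched on both strands the shares of genes called lower, called higher and of all genes were 71.9%, 61.1% and 68.1% (GGGCGG), 12.7%, 9.54% and 11.2% (CACGTG), 4.05%, 1.81% and 3.66% (TGACGTCA), and 6.39%, 5.92% and 6.13% (TATAAA). For genes of 20 to 50 kb called lower and higher the shares were 73.9% and 53.7% (GGGCGG) and 4.04% and 0.610% (TGACGTCA), and the order turned for CACGTG (12% and 13.4%) and TATAAA (4.98% and 7.93%). A match is a description and not a binding site. Windows of 60 bases that hold the box are shown for 4 cholesterol genes, 4 G2/M genes and Cd68, which fell, and for Klhl26, which rose with a CCAAT in its promoter, all 5′ to 3′ on the strand of the gene with CCAAT or its reverse complement ATTGG in capitals.
Insig1, chr5:28071169-28071228 (+): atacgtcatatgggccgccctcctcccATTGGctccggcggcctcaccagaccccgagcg
Mvd, chr8:122443423-122443482 (−): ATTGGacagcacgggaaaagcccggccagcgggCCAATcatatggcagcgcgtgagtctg
Lss, chr10:76531516-76531575 (+): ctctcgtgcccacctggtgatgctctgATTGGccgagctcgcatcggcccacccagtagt
Hsd17b7, chr1:169969246-169969305 (−): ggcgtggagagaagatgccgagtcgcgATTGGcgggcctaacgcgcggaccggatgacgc
Cenpf, chr1:189688125-189688184 (−): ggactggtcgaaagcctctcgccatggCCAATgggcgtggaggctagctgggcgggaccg
Cdk1, chr10:69352939-69352998 (−): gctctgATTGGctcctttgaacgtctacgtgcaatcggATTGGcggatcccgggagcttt
Aurka, chr2:172370571-172370630 (−): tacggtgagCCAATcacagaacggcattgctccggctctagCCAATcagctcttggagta
Ccnb1, chr13:100786571-100786630 (−): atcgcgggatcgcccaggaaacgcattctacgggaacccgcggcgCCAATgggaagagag
Cd68, chr11:69666198-69666257 (−): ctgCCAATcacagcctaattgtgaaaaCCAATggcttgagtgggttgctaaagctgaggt
Klhl26, chr8:70477102-70477161 (−): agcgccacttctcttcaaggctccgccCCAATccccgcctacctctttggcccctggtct

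Mvd, Cdk1, Aurka and Cd68 have the box at more than one place in these windows. Mvd, which makes isopentenyl diphosphate, fell by 0.98, Lss, the lanosterol synthase, by 0.85, and Hsd17b7, a sterol reductase, by 0.78. Cd68, a lysosomal glycoprotein best known from macrophages, stood at 17.0, 34.7, 12.3 and 17.0 TPM in the burst and at 5.63, 10.6, 4.45 and 6.32 TPM late (−1.41 ± 0.11, adjusted p = 1.41e-06). Its late libraries were below its burst libraries but well above the 1.27 to 2.72 TPM of mitotic and 1.28 to 2.92 TPM of asynchronous cells.

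**Figure D4:**
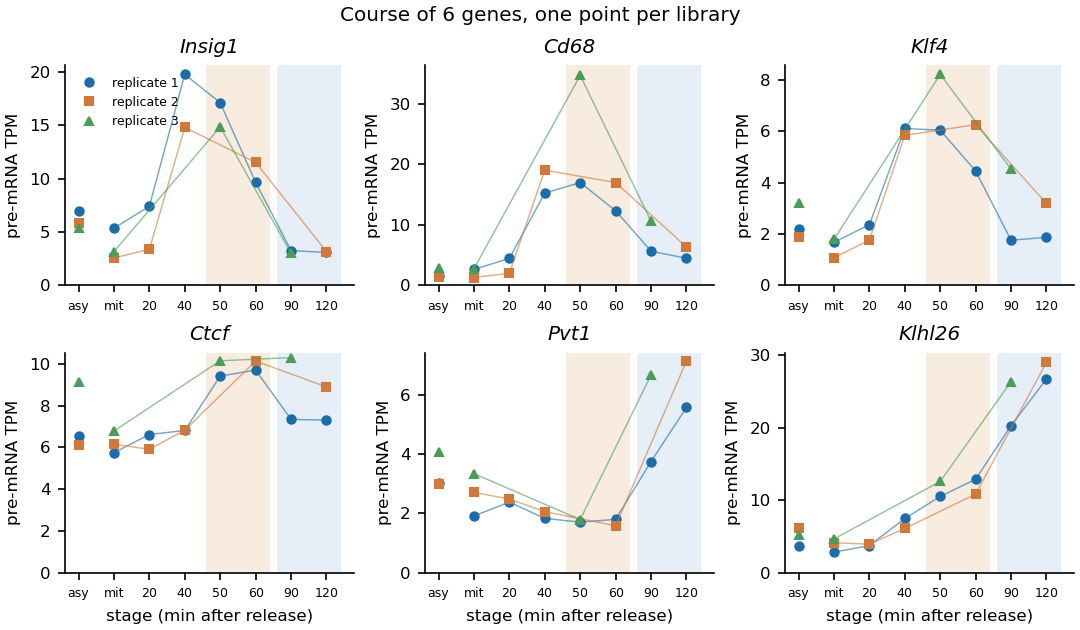
Pre-mRNA TPM of Insig1, Cd68, Klf4, Ctcf, Pvt1 and Klhl26 in each of the 18 libraries without IAA, by stage and replicate, with the burst and late stages shaded. Insig1, Cd68 and Klf4 peak at 40 to 60 min and are lower late, Ctcf is level in comparison, and Pvt1 and Klhl26 are highest at 90 to 120 min.

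As deposited, regulators of G1/S were called lower about as often as all genes (53.4%), and those of replication more often. At the same sum, where 30.8% of all genes were lower and 31.7% higher, both lists were called lower more often than that. Of 23 cyclins, CDKs and E2F genes of the G1/S transition 12 were lower and 2 higher (median −0.45, and 11 lower and 7 higher at the same sum). Ccne1, cyclin E1, fell from 13.1, 14.8, 11.4 and 9.96 TPM to 4.91, 7.95, 4.56 and 3.83 TPM (−1.10 ± 0.10), and its partner Cdk2 by 0.91, both without overlap. Rb1, the retinoblastoma protein that restrains E2F, rose by 0.32 and E2f3 by 0.28. For replication licensing 22 of 27 genes fell and 1 rose (median −0.48, and 15 lower and 5 higher at the same sum). Gins2, a subunit of the replicative helicase, decreased by 0.99 and Mcm4, another, by 0.94, while Orc3 of the origin recognition complex rose by 0.35. Of 15 genes of the anaphase-promoting complex, 9 fell and none rose (median −0.27), which is near the share of all genes, and at the same sum 5 were lower and 4 higher with a median of −0.01. Fbxo5, its inhibitor, fell by 0.86 and Cdc27, a core subunit, by 0.66. Of 65 replication-dependent histone genes only 5 are listed, of which 3 fell and 1 rose, also at the same sum. Hist1h2bp was at 23.2, 26.9, 15.2 and 17.5 TPM and then at 6.49, 6.90, 5.32 and 4.89 TPM (−1.63 ± 0.12), and Hist1h2bq rose by 0.47 with overlapping libraries. Histone genes of a cluster are near-identical in sequence, so reads may have been split among them.

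Most genes induced by growth factors fell. Of 20 immediate early genes measured (of 32) 18 fell and 1 rose (median −0.54, and 12 lower and 2 higher at the same sum). The background of all genes is 53.4% lower and 10.6% higher, and 30.8% and 31.7% at the same sum. Klf10, a repressor induced by TGF-beta, stood at 6.57, 6.55, 4.59 and 6.01 TPM in the burst and 1.71, 1.97, 1.69 and 2.01 TPM late (−1.28 ± 0.10), and Gadd45b fell by 1.25, neither with overlap. Fosl1, an AP-1 subunit, rose from 2.77, 2.31, 3.04 and 1.90 TPM to 4.47, 5.05, 6.50 and 3.97 TPM (0.77 ± 0.10), above all burst libraries. Among targets of LIF, Wnt, BMP and Nodal signals 19 of 25 were lower and none higher (median −0.56, and 13 lower and 3 higher at the same sum). Skil, a feedback repressor of SMADs, fell by 1.17 and Lefty1, an inhibitor of Nodal, by 1.13, although Lefty1 ranged from 1.22 to 10.4 TPM in the burst and from 0.342 to 3.16 TPM late and so overlapped. The feedback genes of FGF and ERK were nearer to the background, with 13 of 20 lower and 2 higher (median −0.23, and 4 in each direction at the same sum). The phosphatase genes Dusp4 and Dusp5 each fell by 0.93, and the ETS factor Etv4 rose by 0.49.

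Of 28 heat shock chaperones 26 fell and none rose (median −0.51, and 15 lower and 1 higher at the same sum). Among all genes 53.4% fell and 10.6% rose, and at the same sum 30.8% and 31.7%. Hspa5, the main chaperone of the endoplasmic reticulum, went from 10.1, 11.9, 6.18 and 8.11 TPM to 3.26, 5.11, 3.54 and 3.07 TPM (−1.07 ± 0.12), without overlap, and Hsp90b1, which resides there as well, fell by 0.95. The integrated stress response had 16 of 21 genes lower and 1 higher (median −0.47, and 11 lower and 3 higher at the same sum). Beside Ddit3, the amino acid transporter Slc7a5 fell by 1.12, whereas Atf4, the factor that heads this response, rose by 0.23 from a low level of 0.630 to 1.01 TPM. P53 targets were near the shares of all genes for those called lower, with 11 of 20 lower and 4 higher (median −0.24, turning to 0.02 with 6 lower and 7 higher at the same sum). Bbc3, which encodes the apoptosis inducer PUMA, fell by 0.92, and Perp, a membrane protein of apoptosis and adhesion, rose from 2.12, 1.53, 2.68 and 2.65 TPM to 3.72, 3.79, 4.47 and 5.03 TPM (0.70 ± 0.09).

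Glycolysis, oxidative phosphorylation and tubulins had more genes called lower than the 53.4% of all genes, and targets of actin, SRF and YAP did not. At the same sum 30.8% of all genes were lower and 31.7% higher. Glycolysis had 18 of 21 genes lower and none higher (median −0.55, and 15 lower and 1 higher at the same sum). Hk2, hexokinase 2, decreased from 7.06, 9.13, 5.38 and 8.52 TPM to 1.53, 4.24, 1.51 and 2.96 TPM (−1.31 ± 0.11) and Pgk1 by 1.06, and in neither did the groups overlap. Oxidative phosphorylation had 49 of 68 genes lower and 4 higher (median −0.37, and 24 lower and 17 higher at the same sum), with Atp5e and Atp5g1 of the ATP synthase each falling by 0.85 and Ndufs4 of complex I rising by 0.50. Tubulins were lower in 12 of 14 cases and higher in none (median −0.65, and 10 lower and 1 higher at the same sum). Tuba1a fell by 1.24 and Tubb3 by 1.04, and tubulin genes are similar enough that their reads may be shared. For targets of actin, SRF and YAP 11 of 21 were lower and 5 higher (median −0.20, turning to 0.05 with 8 lower and 9 higher at the same sum). Amotl2, an inhibitor of YAP, fell from 5.35, 6.81, 3.76 and 7.89 TPM to 1.01, 2.21, 0.753 and 2.15 TPM (−1.47 ± 0.10), and its relative Amotl1, a gene of 103 kb, rose by 0.65. Cnn3, calponin 3, fell by 1.15.

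**Figure D5:**
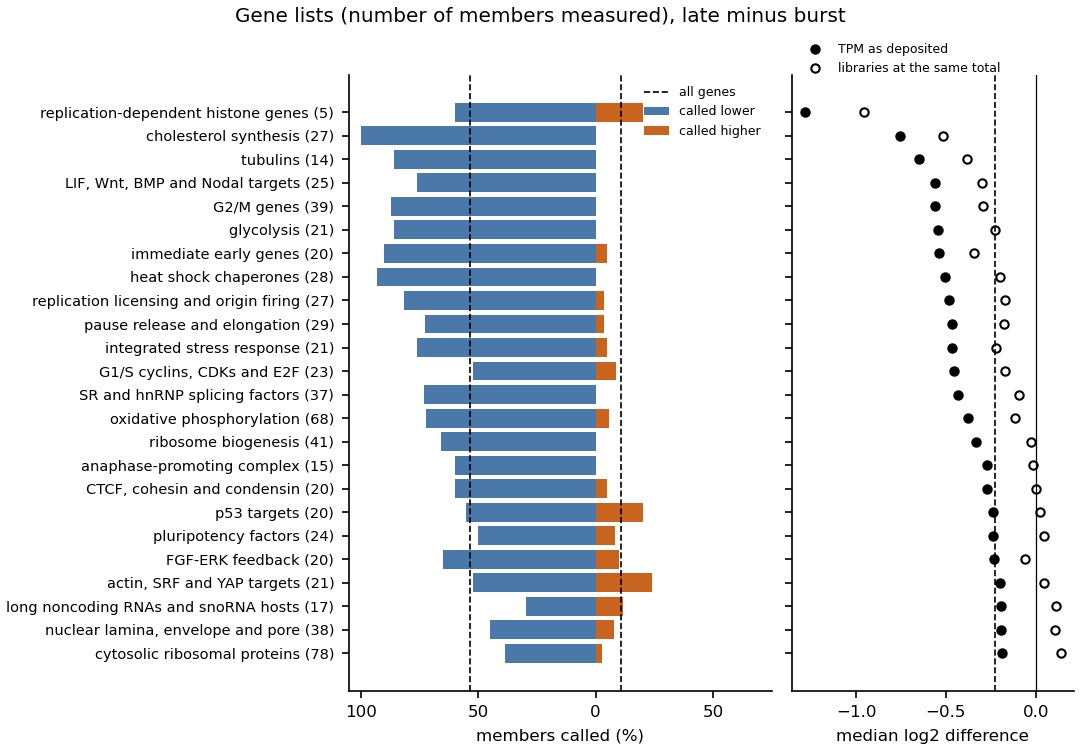
For each of 24 gene lists with its number of measured members, the percentage of members called lower and higher (left, dashed lines at 53.4% and 10.6% for all genes) and the median difference late minus burst on the log2(TPM + 1) scale, as deposited and with libraries at the same sum (right, dashed line at the median of all genes). Cholesterol synthesis has all of its 27 members called lower, and cytosolic ribosomal proteins have the smallest median decline, −0.19.

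Among genes of splicing, elongation and ribosomes the counts are read beside 53.4% lower and 10.6% higher for all genes, and 30.8% and 31.7% at the same sum. Of 37 SR and hnRNP splicing factors 27 fell and none rose (median −0.44, and 16 lower and 9 higher at the same sum), with Srsf7 and Hnrnpul2 each at −1.04. Srsf7, which binds splicing enhancers, had 31.0, 32.1, 21.6 and 25 TPM in the burst and 13.1, 14.1, 11.7 and 11.9 TPM late, without overlap. Of 29 genes of pause release and elongation 21 fell and 1 rose (median −0.47, and 15 lower and 6 higher at the same sum). Paf1, which travels with elongating polymerase, fell by 1.21, Mepce, which stabilises the 7SK RNA, by 1.00, and Cdk9, the kinase of P-TEFb, by 0.69. Cytosolic ribosomal proteins had 30 of 78 genes lower and 2 higher (median −0.19), and at the same sum 4 lower and 27 higher with a median of 0.14. Rps28 and Rps19 fell by 0.75 and 0.63 and were lower at the same sum too, whereas Rpl30 and Rpl36 rose by 0.31 and 0.26. Ribosome biogenesis had 27 of 41 genes lower and none higher (median −0.33, and 12 lower and 14 higher at the same sum), among them Nolc1, a nucleolar chaperone, at −0.86 and Bop1, which matures ribosomal RNA, at −0.69. Of 17 long noncoding RNAs and snoRNA hosts 5 fell and 2 rose (median −0.20, turning to 0.11 with 1 lower and 7 higher at the same sum).

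Genes of nuclear architecture had medians near that of all genes, of which 53.4% fell and 10.6% rose (30.8% and 31.7% at the same sum). Of 38 genes of the lamina, envelope and pore 17 fell and 3 rose (median −0.19, turning to 0.11 with 9 lower and 16 higher at the same sum), with the pore genes Nup107 and Nup50 at −0.72 and −0.69 and the pore gene Ndc1 at 0.42. For CTCF, cohesin and condensin 12 of 20 fell and 1 rose (median −0.27, and 6 lower and 7 higher at the same sum). Esco2, which acetylates cohesin in S phase, fell from 24.3, 22.8, 18.3 and 13.4 TPM to 10.5, 11.6, 9.74 and 7.88 TPM (−0.90 ± 0.10) and the condensin gene Ncapd2 by 0.75, while Stag1 was the gene that rose. Ctcf itself stood at 9.41, 10.1, 9.69 and 10.1 TPM in the burst and at 7.34, 10.3, 7.30 and 8.89 TPM late, a difference of −0.21 ± 0.09 that was not called (adjusted p = 0.0567). The groups overlap, as the highest of the 8 libraries is 90 min replicate 3, and at the same sum the difference turned to 0.11. Without replicate 3, or without its 50 or 90 min library, Ctcf was called lower, at −0.29, and it was also called lower after division by the factor of the rounding step (−0.25) and, at −0.21, in the fits of all 18 and all 36 libraries. The data measure its pre-mRNA and not the tagged protein.

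Pluripotency factors were near the shares (53.4% lower and 10.6% higher) and the median of all genes. Of 24 such genes 12 fell and 2 rose (median −0.24, turning to 0.05 with 7 lower and 9 higher at the same sum). Lin28a, which binds let-7 precursors, decreased from 6.16, 6.19, 4.81 and 7.4 TPM to 1.69, 2.58, 1.41 and 2.99 TPM (−1.19 ± 0.10), below the 5.02 to 6.39 TPM it had in mitosis. Klf4, a core factor, stood at 6.04, 8.22, 4.45 and 6.26 TPM and then at 1.75, 4.53, 1.87 and 3.19 TPM (−0.95 ± 0.11), with overlap through 90 min replicate 3. Nanog fell by 0.83, also with overlapping libraries. Pou5f1, which encodes Oct4, went from 15.3, 17.3, 13.9 and 14.3 TPM to 9.53, 12.6, 8.21 and 9.17 TPM (−0.59 ± 0.09, adjusted p = 9.55e-05, and −0.26 at the same sum), within the 7.2 to 11.7 TPM of mitosis in 3 of its 4 late libraries. With 50 and 90 min alone Pou5f1 was at −0.53 and not called. Esrrb, a gene of 161 kb, was at −0.28 ± 0.11 (adjusted p = 0.0312) with overlapping libraries, and at −0.01 and not called at the same sum. The call of Esrrb was also lost with no replicate block, with 50 and 90 min alone (−0.13), without replicate 1 (−0.06) or replicate 2 (−0.29), and without any single library of these replicates (−0.29 to −0.21). Zfp42 and Tcf7l1 rose by 0.29 and 0.40, and both overlapped.

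With IAA the decline had the same median. In CTCF-AID cells given IAA 5592 genes fell (54.6%) and 1187 rose (11.6%), with a median of −0.23, and at the same sum 3322 were lower and 3569 higher. The interaction of IAA with the decline called no gene in limma, and 1 gene, lower, at the same sum. Without replicate 1 the decline with IAA held 3302 genes called lower, and without replicate 2 it held 752 called higher. For the interaction 135 genes had an unadjusted p under 0.05, and the lowest adjusted p was 0.0626, for Dennd6b, a guanine nucleotide exchange factor chosen here after its value was seen, which rose by 0.37 without IAA and whose change was −0.56 with IAA relative to that. Of the 16 genes with the largest decline 15 were called lower with IAA, the exception being Snhg15 at −0.66 (adjusted p = 0.0881). All 12 with the largest rise were called higher. Both sets include genes that met the level filter without IAA only through the stages where they are high. Insig1 fell by 1.91 with IAA, Cd68 by 1.62 and Klf4 by 1.01, and Pvt1 rose by 1.20. Genes over 100 kb had a median of 0.12 with IAA and those under 5 kb −0.36.

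CCNA-GFP cells have libraries of their own, in a table normalized apart, so counts are given side by side and no test was run across the tables. There 1513 of 9911 genes fell (15.3%) and 916 rose (9.24%), with a median of −0.02, and at the same sum 2103 were lower and 2579 higher. The 50 min stage has a single library. These counts moved to 863 and 1984 without replicate 1 and to 680 and 127 without replicate 2, and 547 genes were called higher without replicate 3. Of the 5198 genes called lower in CTCF-AID that this table lists, 4301 were below 0 in CCNA-GFP, and 1388 were called lower and 21 higher. Of the 986 called higher, 945 were above 0, and 494 were called higher and none lower. Among all 9574 shared genes 5105 were below 0. All 16 genes with the largest decline were called lower in CCNA-GFP as well, Mir20a by 2.00, Polg2 by 1.80, Insig1 by 1.38 and Utp14b by 0.97. All 12 with the largest rise were above 0 and 11 were called, the exception being Ltb4r1 at 0.29 (adjusted p = 0.208). Ltb4r2 was among the 11, although its libraries overlapped, at 0 to 4.83 TPM in the burst and 0 to 4.84 TPM late. Both sets include genes that met the level filter in CTCF-AID only through the stages where they are high. Medians by length ran there from −0.15 under 5 kb to 0.20 over 100 kb.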

How the data were processed

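Ribo-depleted, stranded, paired-end RNA-seq of 18 CTCF-AID libraries without IAA was used, with 18 libraries with IAA and 19 of CCNA-GFP for comparison. Per the study's methods and the submitters' processing notes, the authors aligned reads with STAR to mm10, estimated levels with RSEM after adding pre-mRNA isoforms to Gencode vM12 (versions not given in the sources used here), and deposited pre-mRNA TPM of genes above 0.5 TPM in asynchronous or at least 2 post-mitotic samples. Deposited values are whole multiples of 0.01 times a factor of each library (2.19 to 2.80 in the 8 libraries) that is not named. TPM keep no counts, so depth and counting error are unknown. Differences were judged against the spread of libraries within the groups compared. No sample column was left unused. Headers of the asynchronous columns are garbled and were matched through the column names of the study's dataset.

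Differences were fitted with limma 3.58.1 (R 4.3.3; lmFit, eBayes with a trend) on log2(TPM + 1), two-sided, with Benjamini-Hochberg adjustment over all genes of a table and the replicate as a block, which leaves 4 residual degrees of freedom in the 8 libraries. Single values per library were compared by exact permutation tests. The replicate numbers come from the labels. Whether they pair libraries was checked on deviations from the stage mean. Between same-numbered libraries their correlation was above 0.1 in 8 of 8 pairs among the 8 libraries (0.13 to 0.67) and in 45 of 49 over all stages without IAA. Where a stage has a single pair of libraries their deviations mirror each other, so stages with the same replicates gave the same value for both. The values for 50 with 90 min (0.52) and 60 with 120 min (0.67) were thus counted repeatedly, and the pairs are not independent. Replicates of a stage were not copies (Spearman's rho 0.954 to 0.984, no identical values). The fit of late against burst was first run on simulated data. In these a small share of genes changed, in both directions, with noise drawn separately for each gene. A shift shared by most genes of a library was not simulated, so that run does not bear on it. Alternatives were the block, the pseudocount, a filter on the mean, equal sums over genes, division by the factor, robust eBayes, either pair of times alone, all 36 libraries, and each replicate and library left out. Single libraries were left out only for late against burst.

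Named genes are the 16 lower and 12 higher genes with the largest differences among those called, changed the same way in 4 pairs and at a mean of at least 2 TPM, up to 2 genes per list for 24 lists, and Ctcf, Cd68, Pou5f1, Klf4, Esrrb and Myc, 76 in all. Other list members, overlapping genes and neighbours were chosen after their values were seen. Some named genes are not reported here. The comparison, the lists and the rules were chosen with earlier results of these data known. Positions and lengths were read from the vM21 release of Gencode (GRCm38, the same assembly as mm10), in which 10209 of 10237 symbols matched 1 gene, 16 matched ambiguously (Ddit3 among them) and 12 were not matched. Promoters and miRNAs are from RefSeq tables of GRCm38.p6. Python 3.11.15, numpy 2.4.6, pandas 2.3.3 and matplotlib 3.10.9 were used.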

Additional observations from a re-analysis of the deposited data

Results flagged for a closer look

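Within groups of 4 libraries, a highest or lowest value stood apart from the other 3 in 21 of 156 groups examined by Dixon's criterion. Among independent groups of normally distributed values chance alone meets it in about 1 in 20. These groups share the same libraries and each mixes different times, so the count cannot be read against that rate. Replicate 3 at 90 min was the high library for 13 of the 21 groups. Its sum of TPM was 38934 and its median log2(TPM + 1) was 1.84, above the other late libraries, and so were Dnajb14 (1.42 TPM), Pkn3 (2.55 TPM), Atp1b1 (7.55 TPM), Cdk2 (4.71 TPM), Cdc27 (8.16 TPM), Bop1 (8.19 TPM), Hnrnpul2 (6.61 TPM), Slc7a5 (7.82 TPM), Nup107 (4.92 TPM), Ncapd2 (5.001 TPM) and Atp5g1 (5.48 TPM). Without this library 6123 genes were called lower, against 5470 with it, and its part in single results was not tested beyond leaving it out. Replicate 3 at 50 min stood above the other burst libraries for Cdc27 (11.6 TPM), Bop1 (10.8 TPM) and Hist1h2br (42.0 TPM).

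In replicate 1 at 60 min Scd2 was low (11.6 TPM) and Gpr75 high (1.75 TPM) among burst libraries. Replicate 2 was high for Lefty1 both at 60 min (10.4 TPM) and at 120 min (3.16 TPM), and for Dusp4 at 120 min (1.09 TPM).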

How the results depend on the processing

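Of the 75 named genes that were called, 69 kept their call under each of 22 alternatives and all 75 kept their direction. Most were named for their call and large difference in these libraries, which most alternatives fit again, so this follows largely from the selection. Of all 5470 genes called lower, 3155 kept the call at the same sum. All 1086 called higher did, which follows from the scaling. Snhg15, Ltb4r2 and Map2k7 lost the call with robust eBayes (values of −1.57, 2.12 and 1.04), Pou5f1 with only 50 and 90 min (−0.53), and Esrrb and Myc under several, with ranges that stayed below 0. At the same sum over genes Ctcf turned to 0.11, the median gene to 0.0041 and the difference of library medians to 0.0025 (exact p = 0.771). Division by the factor of the rounding step gave −0.27 for the latter (exact p = 0.0286, the smallest possible) and a pseudocount of 0.1 a median gene of −0.33. These exact tests ignore the pairing by replicate, and with divisions within replicates the smallest possible p is 0.0833. The cause of these changes was not tested. Depth is unknown, so counting error of low genes cannot be judged.

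At the same sum the genes called lower and higher were 3155 and 3243 for late against burst, 1595 and 1695 from 60 to 90 min, 2722 and 3573 for late and 3399 and 4305 for burst against mitosis, 2869 and 3076 for late and 3581 and 4052 for burst against asynchronous cells, and 3322 and 3569 with IAA. In CCNA-GFP 2579 were then higher, and the interaction with IAA called 1 gene lower.

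With no replicate block, 562 genes were higher late than in the burst, 714 fell and 67 rose from 60 to 90 min, 187 (late) and 211 (burst) were below mitosis, 403 were below and 4030 above asynchronous cells late and 573 below them in the burst, 597 rose with IAA, and 869 fell and 381 rose in CCNA-GFP. The block therefore moved these counts by over 1.5 times.

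A mean of at least 1 TPM gave 2 genes higher from 50 to 60 min, 183 higher from 60 to 90 min, 254 below mitosis in the burst, and 486 (late) and 527 (burst) below asynchronous cells. With 50 and 90 min alone 3185 genes were lower.

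Leaving out each replicate or library in turn gave 2581 to 6123 genes lower and 567 to 1273 higher for late against burst. The median gene was then at −0.27 to −0.16. For the difference of library medians (−0.29 to −0.18) and the comparisons below, only whole replicates were left out. From 50 to 60 min 1 to 33 were then lower and 0 to 4 higher, from 60 to 90 min 357 to 4418 and 32 to 142, and from 90 to 120 min 0 to 5 and 0 to 3. Against mitosis 178 to 322 were lower and 6404 to 7396 higher late, and 247 to 333 and 7787 to 8463 in the burst. Against asynchronous cells the ranges were 402 to 827 and 4564 to 5689 late, and 620 to 793 and 6899 to 7603 in the burst. With IAA 3302 to 5983 fell and 752 to 1107 rose, the interaction called 0, and in CCNA-GFP 680 to 2092 fell and 127 to 1984 rose. Where a stage kept 1 library, it was assumed to vary like the others.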
